A study of Homo sapiens with 4 samples.

Results

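The mitochondrial ribosomal protein (MRP) genes were followed in 2 leukemia lines, K562 and THP-1, after exposure to Periplocin. They were taken as every row of the count table whose Ensembl identifier maps to a protein-coding gene with a symbol made of MRPL or MRPS and a number. This rule found 78 genes of 20348, with 49 MRPL genes, named for the large ribosomal subunit, and 29 MRPS genes, named for the small subunit. The rule itself uses names only. All 78 reached a mean of 1 CPM, a gene's count scaled to the library total, in each pair of libraries, and none was lost to the filter on low values.

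The mitochondrial ribosome translates the few messages encoded by mitochondrial DNA, which are core subunits of the oxidative phosphorylation complexes. Its proteins are all encoded in the nucleus, made on cytosolic ribosomes and imported. Some descend from bacterial ribosomal proteins, and others were added in the mitochondrial lineage and have no bacterial counterpart. Symbol and place do not always match. The proteins of MRPS30 (mL65) and MRPS18A (mL66) sit in the large particle, and the MRPS36 product is a subunit of the oxoglutarate dehydrogenase complex. By particle, the members are 51 large, 26 small and 1 in neither.

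K562 is a line from a chronic myeloid leukemia with erythroid features, and THP-1 is a monocytic line from an acute leukemia. Periplocin is a plant cardiac glycoside. Each line was cultured for 72 h with DMSO or with 100 nM Periplocin, and poly-A RNA from each of these 4 conditions was sequenced as 1 library from a single biological replicate. The sample titles call the controls blank, whereas the library names and the study's methods give DMSO. Each line is a single established culture, so it stands for itself and not for its disease. With 1 library per condition there is no replicate error, and no p-value is given for a comparison within a line. The intervals given are 95% intervals of the ratio of 2 counts and cover counting error only. A value is a share of the RNA sequenced, and fewer cells of a type and less RNA per cell cannot be told apart.

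Library totals ran from 16381172 to 20622719 counts. The erythroid markers GATA1, KLF1, TAL1, HBG1 and HBZ were between 87.2 and 481 CPM in K562 DMSO and at or below 1.07 CPM in THP-1 DMSO. Of the 7 monocytic markers, SPI1, LYZ, CSF1R, CD33 and FLT3 were between 65.6 and 192 CPM in THP-1 DMSO, HLA-DRA was at 10.7 CPM and MPO at 2.09 CPM. In K562 DMSO the same markers ran from 0 to 45.9 CPM. The K562 label held in the treated library, where these erythroid markers were between 295 and 2260 CPM. In treated THP-1, SPI1, LYZ, CSF1R, CD33 and FLT3 were between 42.0 and 247 CPM, HLA-DRA was at 2.48 CPM and MPO at 0.79 CPM. Of these 7 monocytic markers, 6 were lower than in THP-1 DMSO and 1, SPI1, was higher. Mitochondrially encoded genes took 5.62% of counts in the K562 control and 2.07% in the treated K562 library, and 5.24% and 3.92% in the THP-1 pair, which shifts the CPM of all other genes. Their part in the results below was measured by leaving them out of the totals.

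In summed level, the MRP genes stayed nearly level in K562 cells and were lower in Periplocin-treated THP-1 cells. Together they took 0.375% of counts in K562 DMSO (61355 counts) and 0.383% in K562 Periplocin. In THP-1 cells the share was 0.287% with DMSO and 0.220% with Periplocin. The log2 ratio of the sums was 0.030 (0.014 to 0.046) in K562 and -0.39 (-0.40 to -0.37) in THP-1. When mitochondrially encoded genes were left out of the totals, the K562 ratio turned to -0.023. The MRPL sum in CPM went from 2108 to 2299 in K562 cells and from 1750 to 1377 in THP-1. The MRPS sum went from 1637 to 1526 in K562 cells and from 1122 to 821 in THP-1. The ratio of MRPL to MRPS sums was thus higher with Periplocin in both lines. It went from 1.29 in DMSO to 1.51 for K562 cells and from 1.56 to 1.68 for THP-1 cells. Abundant genes weigh most on these sums. In THP-1, MRPS25 went from 133 to 53.4 CPM, MRPS27 from 147 to 60.6 CPM and MRPL37 from 233 to 134 CPM. The ratio therefore describes the sums and not each gene.

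Gene by gene, the members split evenly in K562 cells and leaned to lower values in THP-1 cells. In K562, 38 of 78 (48.7%) were lower with Periplocin, against 50.1% of the 11863 genes tested, and the median log2 ratio was 0.02 against 0.00 for all genes. In THP-1, 56 of 78 (71.8%) were lower, against 52.2% of 12341 genes, and the median was -0.28 against -0.04. The counting interval lay below 0 for 47 members in THP-1 and above it for 7, while in K562 it lay below 0 for 26 and above for 32. The share of all genes with such intervals was not computed. These counts therefore do not set the members apart from other genes.

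Larger differences were less frequent than among genes at large, apart from decreases in THP-1, which were near that share. A fold of 1.5 or more was used as the call. The genes at large were all those with a mean of 1 CPM or more, not matched to the members' level. No member fell below 3.72 CPM in any library. In K562, 6 members (7.69%) were at least 1.5-fold lower, against a background of 21.8% of all genes, and 10 (12.8%) were at least 1.5-fold higher, against 19.3%. None was at least 2-fold lower, against 11.4%, and 3 were at least 2-fold higher, against 8.94%. In THP-1, 21 members (26.9%) were at least 1.5-fold lower, against 21.6%, and 1 (1.28%) was higher, against 16.8%. The 2-fold counts in THP-1 were 7 lower (8.97%), against 10.8%, and 1 higher, against 7.91%. The THP-1 share of larger decreases is therefore near the background, and the lean to lower values came as many modest differences with few increases.

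**Figure D1:**
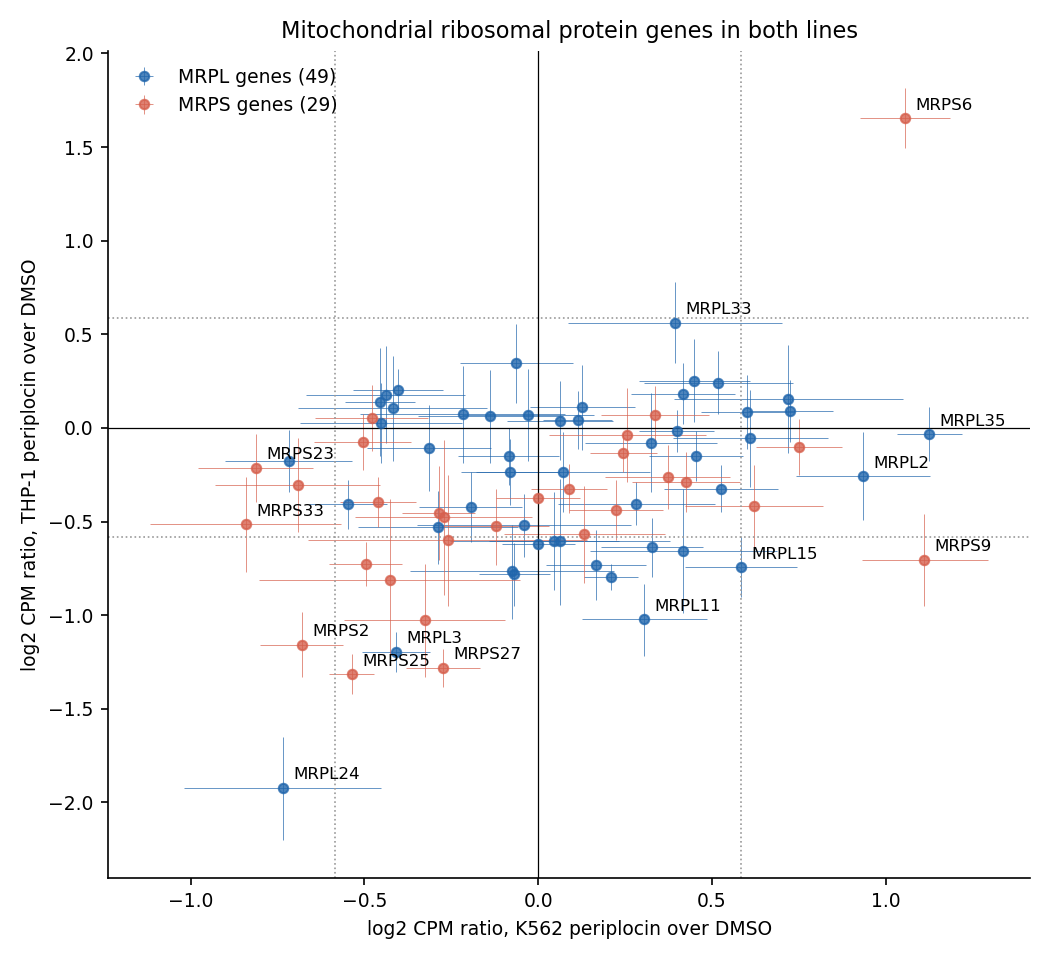
Log2 CPM ratio of Periplocin over DMSO for each of the 78 members, K562 on the horizontal and THP-1 on the vertical axis, with MRPL genes in blue, MRPS genes in red, bars for the 95% counting interval and dotted lines at a 1.5-fold difference. Most points lie below the horizontal line (56 of 78) and spread to both sides of the vertical line, with MRPS6 alone at the upper right and MRPL24 at the bottom.

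The member with the lowest value was MRPL24 in THP-1 cells (chromosome 1, 156737303 to 156741590, minus strand, GENCODE 29 on GRCh38), which encodes a protein of the large particle with a bacterial homologue. It had 17 CPM in DMSO and 10.2 CPM with Periplocin in K562 cells, and 28.9 and 7.62 CPM in THP-1 cells. Both treated libraries lay below both controls. The log2 ratio was -0.73 (-1.02 to -0.45) in K562 and -1.92 (-2.20 to -1.65) in THP-1, the latter a 3.79-fold lower level.

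MRPS25 (mS25), on chromosome 3 from 15042460 to 15065335 on the minus strand, had the highest CPM of any member in K562 DMSO. It measured 279 CPM in DMSO and 192 CPM with Periplocin in K562 cells, and 133 and 53.4 CPM in THP-1 cells. The treated library was lower in each line, with log2 ratios of -0.54 (-0.60 to -0.47) and -1.32 (-1.42 to -1.21). MRPS27 (mS27), a pentatricopeptide-repeat protein of the small particle, had 94.9, 78.5, 147 and 60.6 CPM in the same order of libraries. Its log2 ratio was -0.27 (-0.38 to -0.17) in K562 and -1.28 (-1.38 to -1.18) in THP-1, so the difference lay mainly in THP-1.

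MRPL3 (uL3m), a core protein of the large particle, and MRPS2 (uS2m), of the small particle, followed the same order. MRPL3 had 120 and 90.2 CPM in K562 cells and 129 and 56.3 CPM in THP-1, DMSO before Periplocin, with log2 ratios of -0.41 and -1.20. MRPS2 had 89.9 and 56.1 CPM in K562 cells and 48.1 and 21.6 CPM in THP-1, with log2 ratios of -0.68 (-0.80 to -0.56) and -1.16 (-1.33 to -0.98). MRPL24 and MRPS2 were the only members at least 1.5-fold lower in both lines, 2.56% of members against 8.12% of the 10780 genes tested in both.

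The other THP-1 decreases of at least 2-fold were MRPS12 (uS12m), which lies at the decoding site of bacterial ribosomes, and MRPL11 (uL11m), of the stalk base that factors bind. MRPS12 had 21.1 and 16.8 CPM in the K562 pair and 15.3 and 7.51 CPM in the THP-1 pair, with log2 ratios of -0.33 and -1.03. MRPL11 had 28.1, 34.8, 36.6 and 18 CPM in the same order, with log2 ratios of 0.31 in K562 and -1.02 in THP-1. MRPS26 (mS26), the lowest member per kb, completed the 8 lowest in THP-1 at -0.81 (-1.26 to -0.38) from 6.55 and 3.72 CPM.

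The remaining 13 members at least 1.5-fold lower in THP-1 lay between -0.80 and -0.60, and they came mostly from the large particle. That particle also holds most members. Over all such decreases in THP-1, 13 of 51 large-particle genes and 8 of 26 small-particle genes were called, against 21.6% of all genes. MRPL37 (mL37), the most abundant member by CPM in that line, went from 233 to 134 CPM, a log2 ratio of -0.80 (-0.87 to -0.72), while in K562 it was higher at 0.21 (0.13 to 0.29). MRPL30, MRPL1, MRPL15, MRPL4, MRPL46, MRPL12, MRPL19, MRPL55 and MRPL39 were the other large-particle genes, and MRPS35, MRPS9 and MRPS28 were those of the small particle. MRPL15 at 0.58, MRPL46 at 0.42, MRPL12 at 0.33 and MRPL4 at 0.17 were higher in K562 with intervals above 0, as were MRPL37 and MRPS9, whereas MRPS35 was lower in both lines (-0.50 and -0.73).

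In K562 the lowest values were partly in other genes, and 5 of the 8 lowest were MRPS genes, 3 of the 8 (MRPL24, MRPS2 and MRPS25) being also among the lowest in THP-1. MRPS33 (mS33) had 18.9 CPM in DMSO and 10.6 with Periplocin, a log2 ratio of -0.84 (-1.12 to -0.57), and MRPS23 (mS23) 50.3 and 28.6, a log2 ratio of -0.81 (-0.98 to -0.65). MRPL24, MRPL20, MRPS31, MRPS2, MRPL45 and MRPS25 made up the 8 lowest, between -0.73 and -0.54. MRPS33, MRPS23, MRPL20 and MRPS31 were closer to 0 in THP-1, where their log2 ratios were -0.51, -0.21, -0.18 and -0.30.

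MRPS6 (bS6m), a small-particle protein of bacterial descent on chromosome 21 (34073224 to 34143034, plus strand), was higher with Periplocin in both lines. It had 43.7 CPM in DMSO and 90.9 CPM with Periplocin in K562 cells, and 21.8 and 68.7 CPM in THP-1 cells. Both treated libraries lay above both controls. The log2 ratio was 1.06 (0.93 to 1.19) in K562 and 1.65 (1.5 to 1.81) in THP-1, a 3.15-fold higher level. It was the only member at least 1.5-fold higher in both lines, 1.28% of members against 5.2% of genes.

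The MRPS6 value carries a limit of annotation. SLC5A3, which encodes a myo-inositol transporter, starts inside the first exon of MRPS6 on the same strand, and the 2 genes share 273 exon bases in GENCODE 29, 6.35% of the exon bases of MRPS6, with 176 of these in the first exon (34073570 to 34073745). SLC5A3 had 149 and 291 CPM in the K562 pair and 79.1 and 213 CPM in the THP-1 pair, DMSO before Periplocin, with log2 ratios of 0.97 (0.90 to 1.04) and 1.43 (1.34 to 1.51). It was therefore higher in the same libraries, and how its reads were divided from those of MRPS6 was not tested. In all, 38 members overlap another gene of the table, 13 of them on the same strand.

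Other members were past 1.5-fold higher in K562 and not in THP-1. MRPL35 (bL35m) went from 80.2 to 175 CPM in K562 cells, a log2 ratio of 1.13 (1.03 to 1.22), and 42.3 and 41.3 CPM in THP-1, a ratio of -0.03 (-0.18 to 0.11). MRPS9 (uS9m), whose bacterial homologue reaches the tRNA sites, had 22.2 and 48.0 CPM in the K562 pair and 19.2 and 11.8 CPM in the THP-1 pair. It was higher in K562 at 1.11 (0.93 to 1.29) and lower in THP-1 at -0.70 (-0.95 to -0.46), the only member past 1.5-fold in opposite directions, against 1.77% of genes that were at least 1.5-fold higher in K562 and lower in THP-1.

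MRPL2 (uL2m), at the peptidyl-transferase centre in bacteria, went from 20.7 to 39.6 CPM in K562, a log2 ratio of 0.93, and from 17.6 to 14.7 CPM in THP-1, a ratio of -0.26. KLC4, which spans MRPL2 on the other strand, had log2 ratios of 1.08 in K562 and 0.02 in THP-1. The strand setting of the counting is not given, and how the reads of MRPL2 and KLC4 were divided was not tested. MRPS5 (uS5m) had log2 ratios of 0.75 in K562 and -0.10 in THP-1, with 51.5 and 86.6 CPM in the former and 40.2 and 37.5 CPM in the latter. The highest values in THP-1 below MRPS6 were small, with MRPL33 (bL33m) at 0.56, MRPL34 at 0.35, MRPL14 at 0.25 and MRPL47 at 0.24. MRPL33 was the nearest to the call and did not reach it. The K562 calls were completed by MRPL28 at 0.73, MRPL54 at 0.72, MRPS24 at 0.62, MRPL27 at 0.61 and MRPL32 at 0.60. In THP-1 these 5 were at 0.09, 0.16, -0.42, -0.06 and 0.09. Among the 10 K562 increases, 9 were therefore below the 1.5-fold limit in THP-1, and MRPS6 was the exception.

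**Figure D2:**
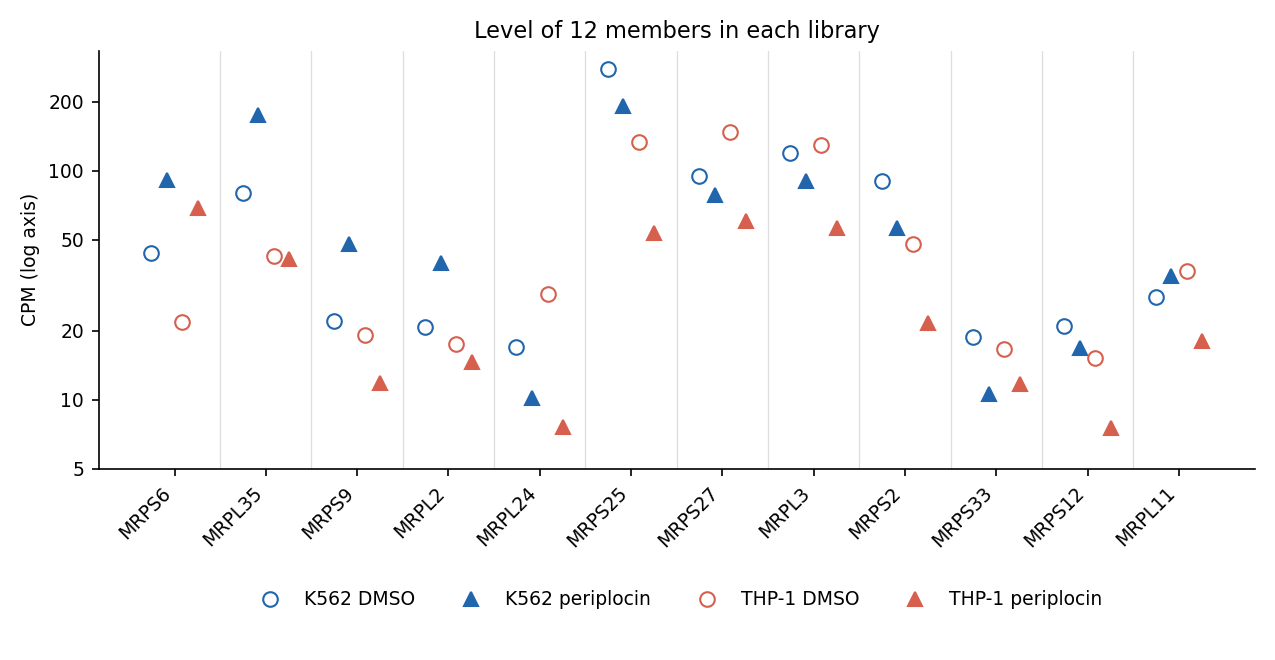
CPM on a log axis of 12 members in each library, with K562 in blue, THP-1 in red, open circles for DMSO and filled triangles for Periplocin. MRPS6 lies higher with Periplocin in both lines (90.9 against 43.7 CPM and 68.7 against 21.8 CPM), MRPL24, MRPS25 and MRPS2 lie lower in both, and MRPS9 moves in opposite directions.

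The large and small subunits differed in their medians in both lines. In K562 the median log2 ratio was 0.06 for the 49 MRPL genes and -0.26 for the 29 MRPS genes, and in THP-1 it was -0.15 and -0.42. The difference of the medians, large minus small, was 0.32 in K562 and 0.27 in THP-1. By particle instead of symbol it was 0.34 and 0.29. In THP-1, 26 of 29 MRPS genes and 30 of 49 MRPL genes were lower. Members are not replicates, so these differences carry no test.

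Members were grouped by the first letter of the protein name, u or b for a bacterial homologue and m for mitochondria-specific. Within the small particle, the mitochondria-specific proteins had the lowest medians. In K562, 9 of these 10 genes were lower with Periplocin, with a median log2 ratio of -0.50, against 8 of 16 small-particle genes with bacterial homologues, median 0.07. In THP-1, 10 of 10 and 13 of 16 were lower, with medians of -0.48 and -0.41. MRPS34 (mS34) was the exception in K562 at 0.22. This group holds only proteins with an MRP symbol. With DAP3, PTCD3, AURKAIP1 and CHCHD1, described below, added after the values were seen, 10 of 14 were lower in K562 (median -0.46) and 12 of 14 in THP-1 (median -0.44). In the large particle, the 30 genes with bacterial homologues had medians of 0.11 in K562 and -0.21 in THP-1, and the 21 mitochondria-specific genes 0.07 and -0.02.

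**Figure D3:**
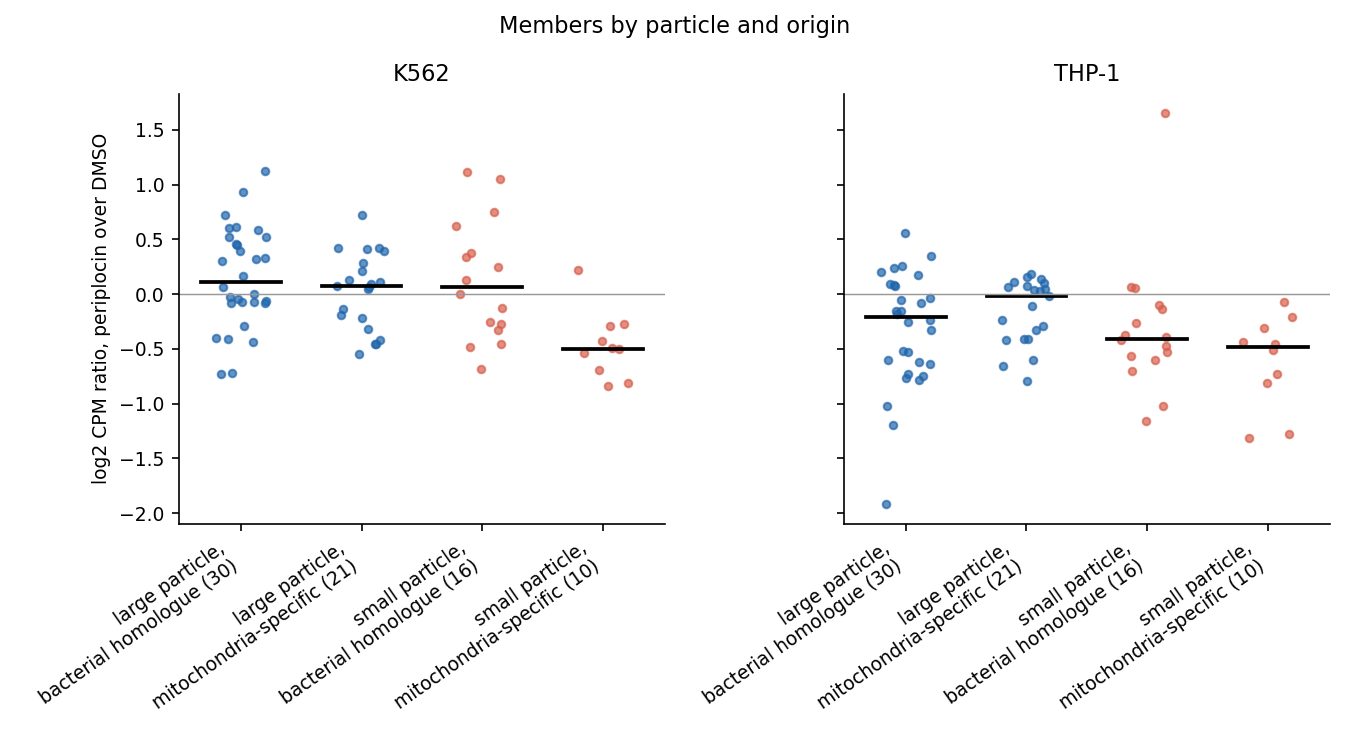
Log2 CPM ratio of Periplocin over DMSO for members grouped by particle and by bacterial homologue or mitochondria-specific protein, K562 at the left and THP-1 at the right, with a point per gene and a bar at the median. The mitochondria-specific small-particle genes with an MRP symbol lie below 0 in 9 of 10 cases in K562 and in 10 of 10 in THP-1.

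Some members with particular roles had modest values. MRPL12 (bL12m), the stalk protein also known to bind the mitochondrial RNA polymerase, had 42.1 and 52.8 CPM in the K562 pair and 46.0 and 29.6 CPM in the THP-1 pair, with log2 ratios of 0.33 and -0.64. MRPL58 (mL62), a peptidyl-tRNA hydrolase built into the large particle, had log2 ratios of -0.14 and 0.06. The 3 paralogues of bacterial S18 did not share a direction in K562, where MRPS18A (mL66) was at 0.42, MRPS18B (mS40) at -0.29 and MRPS18C (bS18m) at -0.12, and all were lower in THP-1 at -0.29, -0.45 and -0.53. By their protein names, MRPS18A and MRPS18B were grouped above as mitochondria-specific despite this relation to S18. MRPS30 (mL65) was at 0.09 and -0.32. MRPS36, the member outside the ribosome, was at 0.26 and -0.04.

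The mitoribosome has further proteins whose symbols lie outside the rule. DAP3 (mS29), a GTP-binding protein of the small particle, was lower in both lines, at -0.56 in K562 and -0.58 in THP-1, from 218 to 148 CPM and from 161 to 107 CPM. PTCD3 (mS39) was at 0.94 and -0.06, AURKAIP1 (mS38) at 0.90 and 0.12, CHCHD1 (mS37) at 0.73 and 0.33, and GADD45GIP1 (mL64) at 0.41 and -0.51. PTCD3, AURKAIP1 and CHCHD1 were past 1.5-fold in K562, and none of the 5 was in THP-1. PTCD3, AURKAIP1 and CHCHD1 thus lay above the MRPS median of -0.26 in K562, and DAP3 lay below it.

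Comparing the lines, the THP-1 log2 ratio was below the K562 ratio in 58 of 78 members (74.4%), against 53.6% of 10780 genes, with a median gap of -0.38 against -0.06. A total of 28 members (35.9%) were lower in both lines, against 32.0%, 12 (15.4%) were higher in both, against 29.6%, 28 (35.9%) were higher in K562 and lower in THP-1, against 20.2%, and 10 (12.8%) did the reverse, against 18.1%. MRPS9 had the widest gap, -1.81 (-2.12 to -1.51), followed by MRPL11 and MRPL15 at -1.33 each and MRPL2 and MRPL24 at -1.19 each. MRPL36 at 0.62, MRPL18 at 0.61, MRPS23 at 0.60, MRPS6 at 0.60 and MRPL40 at 0.59 had the widest gaps in the other direction. With 1 library per condition the line difference has no residual degree of freedom and was not tested. Across the 78 members the log2 ratios of the lines had Pearson's r of 0.352 and Spearman's rho of 0.258, and 0.277 and 0.231 without MRPS6, as a description over genes that share libraries. Over 10768 genes the same measures were 0.287 and 0.313, so the members' values were near those of genes at large.

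The members' log2 ratios spread more than counting error alone gives. Their SD was 0.471 in K562 and 0.494 in THP-1, where the median counting standard error of a member was 0.0813 and 0.0939. Counts per member and library ranged from 66 to 4810. The rank correlation of the ratio with transcript length was -0.118 in K562 and -0.224 in THP-1, and with level in CPM 0.044 and -0.107.

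A fit over all 4 libraries, which modelled the line and the drug, took the disagreement of the lines as its error with 1 residual degree of freedom. No member passed at an adjusted p under 0.05 by edgeR's quasi-likelihood test, as 0.0% of 13584 genes did. At an unadjusted p under 0.05, 5 members passed, against 11.3% of genes. MRPS6 was higher at a fitted log2 fold change of 1.36 (adjusted p = 0.356, edgeR quasi-likelihood with Benjamini-Hochberg adjustment). MRPS2, MRPS25, MRPL24 and MRPL3 were lower, at -0.91, -0.92, -1.32 and -0.79. DESeq2 with the same design called 0 members, against 0.968% of 12196 genes, and 5 members had an unadjusted p under 0.05, against 9.52% of those genes.

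In the DMSO controls, cultured for 72 h without Periplocin, the members were lower in THP-1 than in K562. Their median log2 ratio of THP-1 to K562 was -0.38, against -0.10 for all genes, and 55 of 78 (70.5%) were lower in THP-1, against 53.5% of 12845 genes. At 1.5-fold, 30 members (38.5%) were lower, against 33.5% of genes, and 7 (8.97%) higher, against 28.3%. At 2-fold, 14 (17.9%) were lower, against 23.5%, and 2 (2.56%) higher, against 21%. Another scaling moved the median of all genes by 0.12 to 0.02 with TMM factors, and the members' median was then -0.26.

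Single members set the lines apart. MRPL40 (mL40), on chromosome 22 from 19431902 to 19436075, had 115 CPM in K562 and 10 CPM in THP-1 with DMSO, and 84.1 and 11.1 CPM with Periplocin. MRPS18B had 99.4 and 16.8 CPM in the DMSO libraries. MRPL44 (mL44), a protein with an RNase III-like fold, ran the other way at 18.1 and 76.6 CPM, and so did MRPL23 (uL23m) at 11 and 37.1 CPM. The log2 ratios of THP-1 to K562 were -3.52, -2.56, 2.08 and 1.76, each wider than any Periplocin ratio of the same gene.

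**Figure D4:**
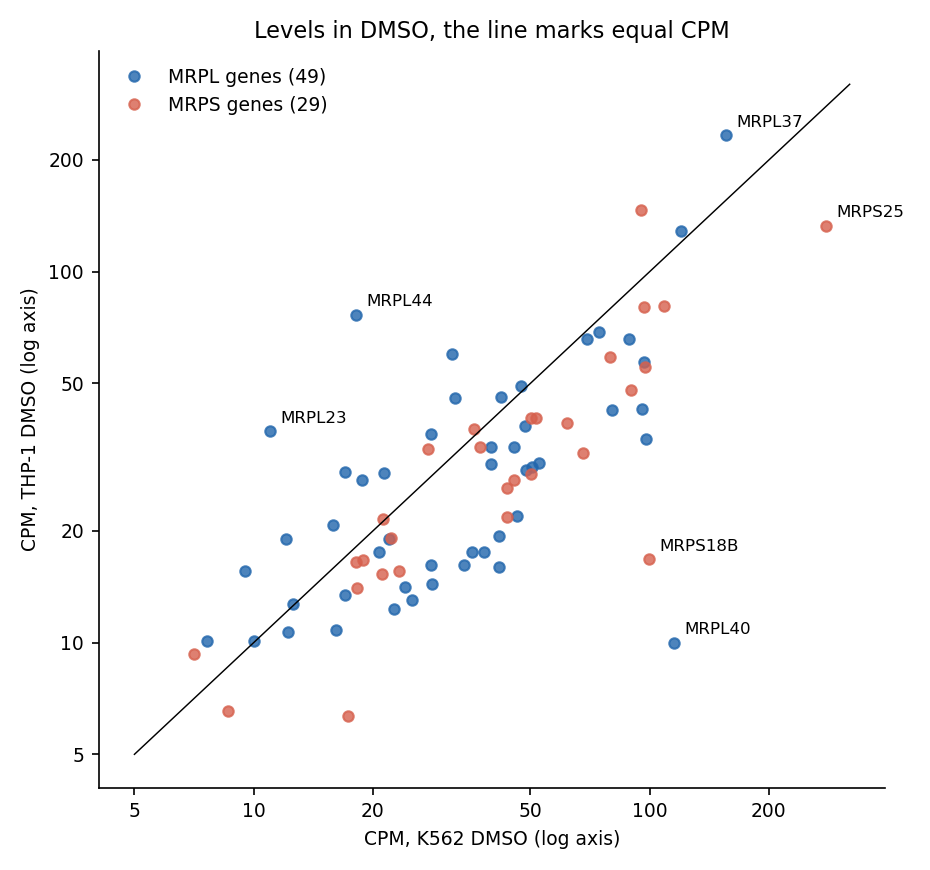
CPM of the 78 members in K562 DMSO (horizontal) and THP-1 DMSO (vertical) on log axes, MRPL genes in blue and MRPS genes in red, with a line at equal CPM. 55 of 78 lie below the line, with MRPL40 (115 and 10 CPM) and MRPS18B (99.4 and 16.8 CPM) farthest below it and MRPL44 and MRPL23 farthest above.

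Levels between genes were compared per kb of transcript. Mean CPM per kb over the 4 libraries was highest for MRPL49 (133), MRPL37 (132) and MRPS25 (128), and lowest for MRPS26 (5.61), MRPL22 (6.88) and MRPS11 (7.42). The median per kb in a library was 35.7 and 40.5 for the K562 pair and 24.2 and 21.7 for the THP-1 pair, DMSO before Periplocin. The order of members was largely kept within a line, with Pearson's r of log2 CPM between DMSO and Periplocin of 0.914 in K562 and 0.885 in THP-1, and 0.723 between the DMSO libraries.

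The genes of the cytosolic ribosome and the respiratory chain were set beside the members. Cytosolic ribosomal protein genes were lower in 78 of 79 cases in K562 and 79 of 79 in THP-1, with median log2 ratios of -0.83 and -0.91, down to -1.49 for RPS18 in K562 and -1.86 for RPL12 in THP-1. As a result, the MRP sum relative to the cytosolic sum went from 6.77% to 12.1% in K562 cells and from 5.3% to 7.95% in THP-1. Nuclear oxidative phosphorylation subunits were higher in 62 of 76 cases in K562, median 0.34, and in 42 of 76 in THP-1, median 0.04, with COX7B highest in both (1.15 and 0.64). The 13 mitochondrially encoded proteins were lower in 13 of 13 cases in K562, median -1.28, with MT-CO1 at -2.15, and in 12 of 13 in THP-1, median -0.28. The MRP medians of 0.02 and -0.28 lay between those of the cytosolic ribosome and the nuclear respiratory genes in both lines.

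The lists of genes that build and run the mitoribosome had the following values. Of 28 assembly factors, 19 were lower in K562 (median -0.11) and 23 in THP-1 (median -0.45). RBFA, a small-particle maturation factor, was lowest in THP-1 at -1.94, followed by MRM1, an rRNA methyltransferase, at -1.45 and the helicase DDX28 at -1.37, and in K562 the lowest were MTG1 at -1.07, MRM1 at -1.03 and TFB1M at -0.90. YBEY, an endoribonuclease, was highest in both, at 1.32 and 1.41. Of 18 translation factors, 10 were lower in K562 (median -0.01) and 12 in THP-1 (median -0.27), with MTRES1 at -1.39 the lowest in K562 and PDF at -0.83 in THP-1. Of 14 regulators of mitochondrial biogenesis, 12 reached 1 CPM in each line, with medians of -0.17 and -0.11. MYC, a transcription factor that promotes ribosome production, was the lowest at -0.90 in K562 and -2.31 in THP-1, whereas POLRMT, the mitochondrial RNA polymerase, was at 1.15 and -0.08, NRF1 at 0.79 and -0.14, and YY1 at 0.54 and 0.58. ESRRA and PPARGC1B, a nuclear receptor and a coactivator of mitochondrial genes, ran the other way between the lines, at -0.19 and 0.95 and at -0.45 and 0.45.

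**Figure D5:**
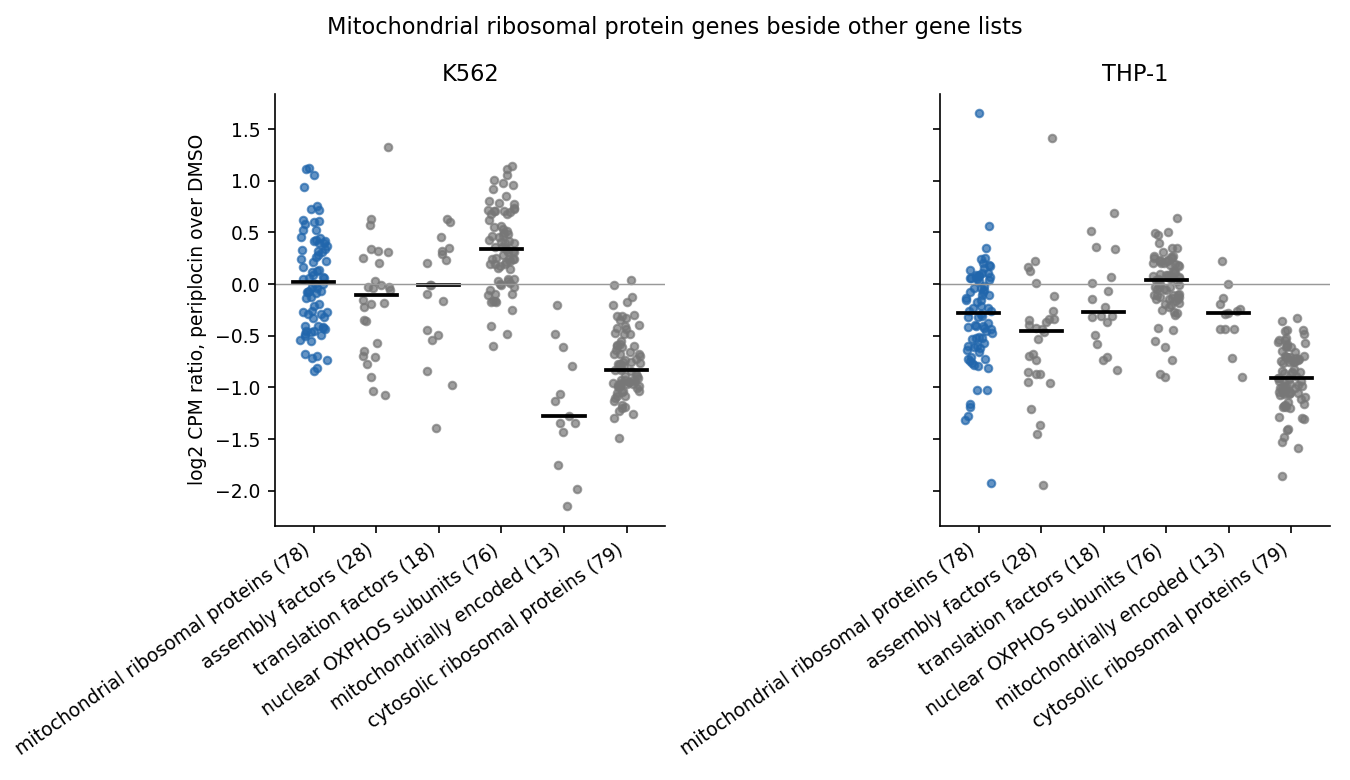
Log2 CPM ratio of Periplocin over DMSO for the members (blue) and 5 other gene lists (grey), K562 at the left and THP-1 at the right, with a point per gene and a bar at the median. The cytosolic ribosomal proteins lie near -0.83 and -0.91, the members near 0.02 and -0.28, and the nuclear oxidative phosphorylation subunits near 0.34 and 0.04.

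The sequence in front of these genes was examined because promoters of genes for mitochondrial proteins are known for NRF1, ETS and YY1 sites. RefSeq windows from 250 bases before to 50 bases after the start, on GRCh38.p14, were matched for 69 of 78 members and for 15271 protein-coding genes of the table. MRPL10, MRPL13, MRPL15, MRPL2, MRPL21, MRPL23, MRPL35, MRPS28 and MRPS36 had no entry. Where a gene had several starts, the window listed first was taken. A total of 6 motifs were searched on both strands, and as spelled here none contains another. The YY1 core AAGATGGC was in 20 members (29%), against 3.97% of all promoters. The ETS motif CCGGAAGT was in 11 (15.9%, against 6.31%), the NRF1 motif GCGCATGC in 6 (8.7%, against 4.26%), the E-box CACGTG in 6 (8.7%, against 8.87%), TATAAA in 2 (2.9%, against 9.6%) and the cyclic AMP element TGACGTCA in 0 (against 2.65%). For nuclear oxidative phosphorylation genes the shares of the YY1 core and the NRF1 motif were 17.7% and 21%.

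The YY1 core lay just after the start on the gene's own strand in 15 members (21.7%), against 2.25% of all promoters. Its letters contain ATG, and whether these matches are also start codons of the proteins was not tested. Members with the core had median log2 ratios of 0.11 in K562 and -0.22 in THP-1, and members without it 0.00 and -0.38, which is a description of letters and values and not of binding. MRPS11 and MRPL46, whose starts face away from each other on chromosome 15, share 181 bases of their windows. Their log2 ratios were 0.13 and 0.42 for the K562 pair, and -0.57 and -0.66 for the THP-1 pair.

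The promoters of 5 members are shown, with motif matches in capitals and all other bases in lower case, each read 5′ to 3′ on the strand of the gene. MRPS6 (chr21:34073328-34073627, plus strand) is shown for the highest THP-1 ratio, and RefSeq gives SLC5A3 the same start. MRPL24 (chr1:156741039-156741338, minus strand) and MRPS25 (chr3:15065266-15065565, minus strand) are shown for the lowest THP-1 ratios. MRPS27 (chr5:72320191-72320490, minus strand) was low in THP-1 and has the YY1 core from position 17, counted from 1 at the start. MRPL52 (chr14:22829637-22829936, plus strand) is the only matched member with 2 copies of the core, and it also has the ETS and NRF1 letters.
MRPS6: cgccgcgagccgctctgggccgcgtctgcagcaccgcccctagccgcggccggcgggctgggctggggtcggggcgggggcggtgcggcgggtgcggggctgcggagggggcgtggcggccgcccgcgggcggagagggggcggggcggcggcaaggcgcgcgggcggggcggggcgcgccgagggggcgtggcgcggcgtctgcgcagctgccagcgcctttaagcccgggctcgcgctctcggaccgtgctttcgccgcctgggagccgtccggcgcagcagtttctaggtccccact
MRPL24: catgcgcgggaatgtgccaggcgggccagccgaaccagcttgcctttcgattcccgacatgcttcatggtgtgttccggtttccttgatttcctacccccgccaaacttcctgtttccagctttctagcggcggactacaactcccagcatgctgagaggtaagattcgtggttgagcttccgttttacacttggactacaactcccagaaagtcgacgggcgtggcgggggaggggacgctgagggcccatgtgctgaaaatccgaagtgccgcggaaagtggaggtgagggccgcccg
MRPS25: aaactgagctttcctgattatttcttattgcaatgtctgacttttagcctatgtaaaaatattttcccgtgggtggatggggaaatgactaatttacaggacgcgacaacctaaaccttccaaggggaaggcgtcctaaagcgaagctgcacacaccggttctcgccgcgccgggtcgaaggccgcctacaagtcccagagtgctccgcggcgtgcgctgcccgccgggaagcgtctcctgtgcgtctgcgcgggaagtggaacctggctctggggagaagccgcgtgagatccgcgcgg
MRPS27: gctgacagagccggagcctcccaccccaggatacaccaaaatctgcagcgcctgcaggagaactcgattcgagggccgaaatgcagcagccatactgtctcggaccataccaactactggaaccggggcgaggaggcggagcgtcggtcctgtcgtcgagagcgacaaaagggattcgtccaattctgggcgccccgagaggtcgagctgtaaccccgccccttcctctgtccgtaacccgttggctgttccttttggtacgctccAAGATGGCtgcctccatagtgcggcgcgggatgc
MRPL52: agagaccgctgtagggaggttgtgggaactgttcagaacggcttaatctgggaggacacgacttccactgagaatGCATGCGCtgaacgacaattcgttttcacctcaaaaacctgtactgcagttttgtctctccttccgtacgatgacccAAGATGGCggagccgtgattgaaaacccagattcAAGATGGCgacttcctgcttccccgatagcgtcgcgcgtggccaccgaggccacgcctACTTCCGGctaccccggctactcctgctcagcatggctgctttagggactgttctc
The windows of MRPS6, MRPL24 and MRPS25 hold none of the 6 motifs, as do those of 37 of the 69 members and 69.1% of all promoters. MRPL52 itself had log2 ratios of -0.42 in K562 and 0.10 in THP-1.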

How the data were processed

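Poly-A RNA of K562 and THP-1 cells was sequenced by the authors, who deposited 1 table of expected counts for each gene in each library, without normalization or pooling. The submitters' processing notes name HISAT2, StringTie 1.3.1 and hg38, with no roles given. The annotation and the strand setting of the counting are not given in the sources used here. The labels name an Illumina sequencer and the study's methods another platform. Between 87.4% and 88.3% of values were whole, and all were rounded. No column was left unused (0 columns). Of 20348 genes, 20118 were found in GENCODE 29, used for gene type, position and transcript length, and symbols came from a gene name table for 20310.

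CPM was computed from library totals of 16381172 to 20622719 counts, and a gene entered a pair when its mean there reached 1 CPM. The log2 ratio within a line has an exact 95% conditional binomial interval, and shares have Clopper-Pearson intervals. Both cover counting error only. The fit over 4 libraries used edgeR 4.0.16 in R 4.3.3 on genes that had 10 or more counts in 2 or more libraries, with DESeq2 1.42.0 as the alternative. It was tested on simulated data for the treatment comparison over 13584 genes, where 198 of 200 changed genes were recovered with 8 other calls. The simulated counts held counting error only, with the same change in both lines. In the real data the lines also disagree, so this recovery does not show how many changed genes the fit can find there. TMM and DESeq2 scaling, totals without mitochondrial genes, other filters, added counts and length and GC centring were tried. Python 3.11.15 and scipy 1.17.1 gave the other values.

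Named members were the 8 lowest and 5 highest in each line, the 5 widest line differences each way, the 3 highest and 3 lowest per kb, and MRPL12, MRPL58, MRPS12, the MRPS18 genes, MRPS30, MRPS36 and the 5 proteins without an MRP symbol. In the other lists the 3 lowest and 3 highest in each line could be named. The members, lists and motifs were chosen with earlier results of these data known. MRPL40, MRPL44, MRPS18B and MRPL23 in DMSO, and MRPS34, MRPS35, MRPS11, MRPL37, MRPL46, MRPL52 and the remaining members past 1.5-fold, were named after their values were seen. The overlapping genes SLC5A3, KLC4, HIRA and C22orf39 were also named after their values were seen. A marker gene of the lists is not reported here.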

Additional observations from a re-analysis of the deposited data

Results flagged for a closer look

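MRPS9 was marked because its direction differed between the lines. Its log2 CPM ratio of Periplocin to DMSO was 1.11 in K562, from 22.2 to 48.0 CPM, and -0.70 in THP-1, from 19.2 to 11.8 CPM. With 1 library per condition the difference was not tested.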

How the results depend on the processing

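Of the main values recomputed under other scalings, filters, a pseudocount, length and GC centring or membership, 105 stayed on the same side and within the limits set, and 4 did not. With mitochondrially encoded genes left out of the totals, the log2 ratio of the MRP sums turned to -0.023 in K562, since those genes took a smaller share of the treated library, and it was -0.41 in THP-1. With DESeq2 size factors it was -0.36 in THP-1. With length and GC centring, 2 members in place of 1 were at least 1.5-fold higher in THP-1, and the cause was not tested. Among named members, 517 values stayed and 1 moved. Across these settings 37 to 40 members were lower in K562 and 50 to 56 in THP-1. Replicates within a line could not be paired because the labels give no replicate numbers and each condition has 1 library, and no library could be left out. The only pairing was by line, in the fit over all 4 libraries. Library size limits the lowest members most, where counts fell to 66.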
